A study of Mus musculus with 4 samples.

Results

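The 8 genes Csf1r, Irf8, Fcgr3, Ly86, F13a1, Klf4, Tgfbi and Tifab were read on every probe set that the annotation of the array platform gives to one of them, on all 4 arrays of the study. That made 16 probe sets, and the 8 genes stand among 18193 named genes on the array. Csf1r has 3 probe sets, Tgfbi has 4, Irf8, Klf4 and Tifab have 2 each, and Fcgr3, Ly86 and F13a1 have 1 each. All 16 probe sets of the 8 genes passed the filter on dim probe sets, a mean log2 intensity over the 4 arrays above the 50th percentile (7.23). The genes were chosen by measured log2 intensities of these same arrays, and which comparison of them entered the choice is not recorded. The genotype differences are treated here as used in it, so they are a description and were not tested.

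Monocytes arise in the bone marrow from progenitors that can also form neutrophils. Irf8 is the transcription factor that steers these progenitors toward monocytes and dendritic cells and away from neutrophils in mice, and Klf4, a zinc finger factor, acts with it in monocyte formation. Csf1r is the receptor for the cytokine M-CSF and marks the monocyte lineage from its progenitors on. Transcripts of such genes can be present already in multipotent progenitors, before a cell is committed to a lineage.

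The groups were Smo-deficient LSK, WT LSK, Smo-deficient MP and WT MP, with 1 array each and thus no replicate. LSK cells (Lin-ckit+Sca1+) are the marrow fraction with stem cells and multipotent progenitors, and MP cells (Lin-ckit+Sca1-) are myeloid progenitors. Smo-deficient mice carried Smo flox/flox and Mx1Cre+, and WT mice carried Smo flox/flox and Mx1Cre-, so the controls also had floxed Smo alleles but no Cre. Smo encodes Smoothened, which passes on the hedgehog signal, and the Mx1 promoter that drives Cre responds to interferon and is not limited to blood cells. Mice of both genotypes received 3 injections of polyI:C, an interferon inducer, at 20 ug/g on alternate days, and their marrow was harvested 6 weeks after treatment. Marrow cells of 4 mice of mixed sex were pooled per genotype before sorting, so Cre, the sex makeup of the pool and Smo loss cannot be told apart. The strain label reads C57BL/6x130 for Smo-deficient LSK, C57BL/6x129 for WT LSK, C57BL/6x132 for Smo-deficient MP and C57BL/6x131 for WT MP. No label states the age of the mice.

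Pearson correlations between arrays, taken across probe sets, lay between 0.980 and 0.994, and the arrays had median intensities between 149.1 and 150.3. Smo, on the brightest of its probe sets, was lower in the Smo-deficient pool, 8.31-fold in LSK and 3.43-fold in MP. Kit, the receptor used in both sorts, had log2 intensities from 12.31 to 12.65, and 0 probe sets were annotated to Ly6a, the gene of Sca-1, so the Sca-1 gate could not be checked. The Y-linked genes Eif2s3y, Kdm5d and Uty were higher in the Smo-deficient pool by 1.70, 1.67 and 1.44 (log2) in LSK and by 1.14, 1.13 and 1.17 in MP, and Xist differed by -0.89 and -0.47. The part of the sex makeup in the differences below was not tested.

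Promoter sequences of 7 of the 8 genes were found in the RefSeq table used here (GRCm38.p6), as the 250 bases before the first listed transcription start. The windows were searched on both strands for the PU.1 core GAGGAA, the ETS-IRF composite (GGAA, then any 2 bases, then GAAA), the interferon response motif (GAAA, any 2 bases, GAAA) and the C/EBP motif (TTGC, any 2 bases, AA). These motifs belong to factor families that act in myeloid cells. The windows of the 3 members with a match are shown, and that of Klf4, which departed from the others in the genotype comparison. Capitals mark the matches.
Fcgr3, chr1:171059404-171059653, minus strand: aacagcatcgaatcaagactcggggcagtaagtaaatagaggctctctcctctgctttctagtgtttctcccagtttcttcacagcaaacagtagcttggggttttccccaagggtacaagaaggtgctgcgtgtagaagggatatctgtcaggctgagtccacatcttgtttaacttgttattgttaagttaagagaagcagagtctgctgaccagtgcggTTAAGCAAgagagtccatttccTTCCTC
F13a1, chr13:37050245-37050494, minus strand: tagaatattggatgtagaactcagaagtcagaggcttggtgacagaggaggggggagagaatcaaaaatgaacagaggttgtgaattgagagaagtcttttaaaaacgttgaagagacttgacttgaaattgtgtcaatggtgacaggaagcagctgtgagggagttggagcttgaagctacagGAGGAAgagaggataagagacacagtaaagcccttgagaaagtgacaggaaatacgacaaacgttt
Tgfbi, chr13:56609336-56609585, plus strand: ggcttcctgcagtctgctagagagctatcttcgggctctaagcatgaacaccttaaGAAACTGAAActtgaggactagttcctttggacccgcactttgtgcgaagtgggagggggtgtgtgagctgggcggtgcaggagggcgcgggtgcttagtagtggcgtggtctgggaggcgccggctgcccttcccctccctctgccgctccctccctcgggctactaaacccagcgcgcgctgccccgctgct
Klf4, chr4:55532476-55532725, minus strand: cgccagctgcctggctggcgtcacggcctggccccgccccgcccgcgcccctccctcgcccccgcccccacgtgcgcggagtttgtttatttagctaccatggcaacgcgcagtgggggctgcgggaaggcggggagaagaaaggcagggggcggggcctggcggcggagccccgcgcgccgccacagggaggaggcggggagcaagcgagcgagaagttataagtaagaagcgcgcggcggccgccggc
The PU.1 core was found in 2 of the 7 windows, Fcgr3 and F13a1, and in 23.3% of all 32817 windows of this length. In Fcgr3 it lay 6 to 1 bases before the start and a C/EBP match lay 28 to 21 bases before it, both on the strand opposite to the gene. The C/EBP motif was found in 1 of 7 windows against 9.57% of all, the interferon response motif in 1 of 7 (Tgfbi) against 2.97%, and the ETS-IRF composite in 0 of 7 against 2.30%. The windows of Irf8, Ly86, Tifab and Klf4 held none of these letters. The 4 matches did not overlap each other.

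Irf8 (chr8:120736358-120756694), read on probe set 1416714_at, reached a log2 intensity of 12.25 on the Smo-deficient LSK array, against 10.99 on the WT LSK array. In MP the values were 13.12 in Smo-deficient and 12.27 in WT cells. Irf8 was thus 2.39-fold higher in Smo-deficient LSK and 1.81-fold higher in Smo-deficient MP than in WT. A dimmer probe set, 1448452_at, was higher by 0.80 (log2) in Smo-deficient LSK and by 1.02 in Smo-deficient MP. The probe sets thus differ in which population showed the larger difference.

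Klf4 (chr4:55527137-55532475) did not follow Irf8. On probe set 1417394_at its log2 intensity was 11.96 in Smo-deficient LSK and 12.11 in WT LSK, and 11.10 in Smo-deficient MP and 10.82 in WT MP. The genotype difference was -0.14 in LSK and 0.28 in MP, and on 1417395_at it was -0.24 and 0.14. As a yardstick, the genotype differences of all probe sets with a similar mean level were summarised by their scaled median absolute deviation, called the spread here, which was 0.21 in LSK and 0.23 in MP for 1417394_at. The spread is taken across probe sets and stands for no replicate error. Klf4 lay 0.69 spreads below 0 in LSK and 1.23 spreads above 0 in MP.

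Csf1r (chromosome 18) was higher in the Smo-deficient pool on all 3 of its probe sets. On 1419872_at the log2 intensity was 11.87 in Smo-deficient LSK, against 10.66 in WT LSK, and 12.94 in Smo-deficient MP, against 11.85 in WT MP. That is 2.32-fold higher in LSK and 2.12-fold higher in MP. Smo-deficient LSK cells and WT MP cells had nearly the same Csf1r level on this probe set, with a difference of 0.02 (log2). The other probe sets differed less, by 0.81 in LSK and 0.76 in MP on 1419873_s_at and by 0.49 and 0.59 on 1423593_a_at.

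Fcgr3 (chr1:171051169-171065915) encodes a low-affinity receptor for IgG on myeloid cells. Its log2 intensity was 9.53 in Smo-deficient LSK, against 8.26 in WT LSK, and 10.14 in Smo-deficient MP, against 9.05 in WT MP. The Smo-deficient values were 2.42-fold higher in LSK and 2.13-fold higher in MP. Its level in Smo-deficient LSK exceeded that in WT MP by 0.49 (log2).

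Ly86 (chr13:37345345-37419036) encodes MD-1, a secreted protein that binds the Toll-like receptor relative Cd180. Log2 intensity was 10.52 in Smo-deficient LSK and 9.17 in WT LSK, and 12.05 in Smo-deficient MP and 10.96 in WT MP. Its 2.54-fold difference in LSK ranked 25th from the highest among 22518 probe sets past the filter, and its 2.12-fold difference in MP ranked 43rd. Tifab (chr13:56173703-56179002), a relative of the TRAF-interacting adaptor Tifa, had log2 intensities of 8.30 in Smo-deficient LSK and 7.40 in WT LSK, and 10.12 in Smo-deficient MP and 9.15 in WT MP, on 1436397_at. Its difference was 0.91 in LSK and 0.98 in MP, and 1.11 and 0.84 on 1444546_at, where WT LSK lay below the filter level at 6.35.

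F13a1 (chr13:36867178-37050244), the catalytic subunit of coagulation factor XIII, is made by monocytes, macrophages and megakaryocytes. Its log2 intensity was 10.65 in Smo-deficient LSK, against 9.63 in WT LSK, and 12.29 in Smo-deficient MP, against 11.48 in WT MP, with differences of 1.02 and 0.81. Tgfbi (chr13:56609586-56639359) encodes a secreted matrix protein induced by TGF-beta. On 1456250_x_at it had 11.02 in Smo-deficient LSK, against 10.25 in WT LSK, and 10.30 in Smo-deficient MP, against 9.53 in WT MP. Its 4 probe sets differed by 0.33 to 0.77 in LSK and by 0.19 to 0.86 in MP, and the smallest difference was that of the dimmest one, 1415871_at. The suffix x, carried by 1456250_x_at and 1437463_x_at, marks probe sets whose probes may bind other transcripts. The dimmest, 1415871_at, was the only Tgfbi probe set with neither x nor s in its suffix. Whether the other Tgfbi probe sets bind other transcripts was not tested.

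**Figure D1:**
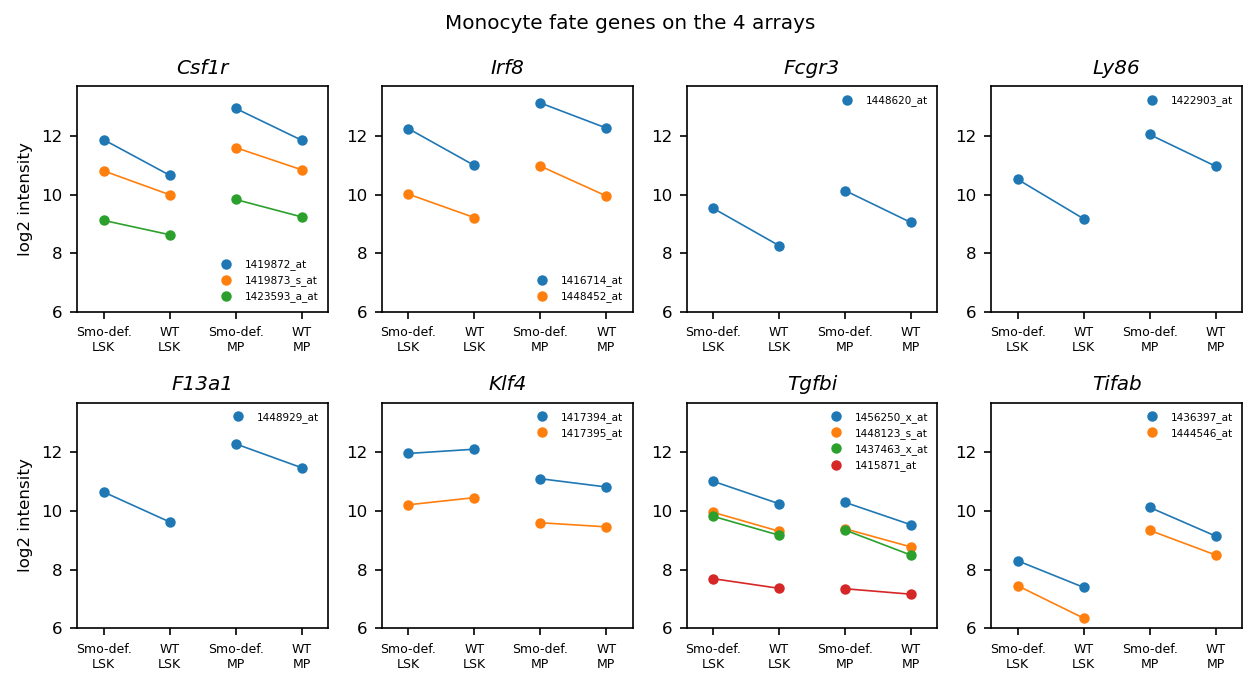
Log2 intensity (y axis) of each probe set of the 8 genes on the 4 arrays (x axis), with 1 point per array, so that there is no error bar, and a line joining Smo-deficient to WT within a population. For all genes but Klf4 both lines slope down from Smo-deficient to WT on every probe set, and Klf4 and Tgfbi are the genes with higher levels in LSK than in MP.

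Each gene was then represented by its brightest probe set. In LSK 5 of the 8 genes were at least 2-fold higher in Smo-deficient cells, where 0.689% of 11904 genes past the filter were, and the median difference was 1.12 against -0.02 over all genes. In MP 3 of the 8 were at least 2-fold higher, against 0.269% of all genes, and the median was 0.92 against -0.05. The genes 2-fold higher in both were Csf1r, Fcgr3 and Ly86, where 0.109% of all genes were. At 1.5-fold, 7 of 8 were higher in both populations, against 1.11% of all genes, and the exception was Klf4. Since the choice of genes may have used these differences, the counts show no more than how the genes were chosen. Of the 16 probe sets 6 reached 2-fold in LSK and 4 in MP, against 0.595% and 0.28% of 22518 probe sets. In bulk samples, more cells of a type and more RNA per cell cannot be told apart.

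**Figure D2:**
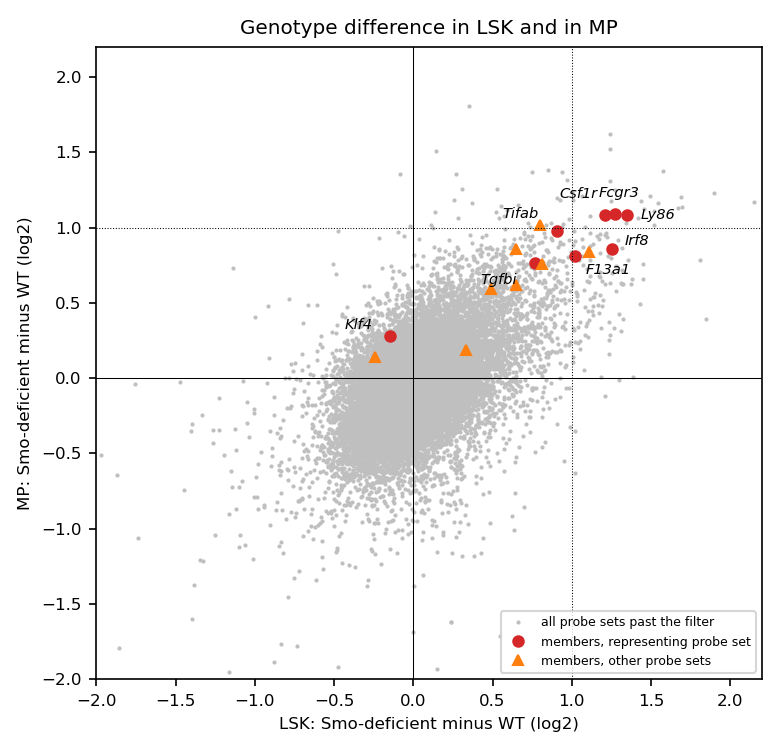
Genotype difference (Smo-deficient minus WT, log2) in LSK on the x axis and in MP on the y axis, for the brightest probe set of each gene (red), the other 8 probe sets of these genes (orange) and all probe sets past the filter (grey). Axes end at -2 and 2.2, which leaves out 13 grey points, dotted lines mark 2-fold, and Csf1r, Fcgr3 and Ly86 lie beyond both of them while Klf4 lies near 0.

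The size of the genotype difference was compared between LSK and MP as a difference of differences, which 1 array per group leaves without a test. It ran from -0.43 for Klf4 to 0.40 for Irf8, with a median of 0.16 against 0.06 over all genes. For 6 of the 8 genes it lay within 2 spreads of 0. The other 2 were Irf8 at 2.78 and Klf4 at -2.22 spreads. The share of all genes beyond 2 spreads was not counted, so these values are not shown to be unusual. The value of Irf8 was not shared by its other probe set, which had -0.22, while that of Klf4 was, with -0.38.

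The populations were also compared with each other, to see in which fraction each gene was more abundant. Whether this contrast also entered the choice of genes is not recorded, so its p-values are not independent support for the members as a group. Fitted with limma over all 22518 probe sets, with the pool as a block and p-values adjusted by Benjamini and Hochberg, 6 of the 8 genes fell in LSK relative to MP, where 7.54% of genes past the filter did, and Klf4 and Tgfbi rose, where 16.4% of genes did. Tifab and F13a1 had the largest differences. Tifab was lower in LSK by a log2 difference of -1.79 ± 0.11 (SE, 2 pools, limma adjusted p = 0.000269), 3.45-fold, and F13a1 by -1.75 ± 0.11 (adjusted p = 0.000273). Ly86 differed by -1.66 ± 0.12 (limma adjusted p = 0.000397).

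Csf1r fell in LSK by 1.13 on the log2 scale (limma adjusted p = 0.000581), and its other probe sets passed as well, at -0.82 and -0.66. Irf8 differed by -1.08 ± 0.11 (limma adjusted p = 0.00144) and Fcgr3, the smallest of the 6, by -0.70 ± 0.12 (limma adjusted p = 0.00818). Klf4 was higher in LSK by 1.07 ± 0.12 (limma adjusted p = 0.00213), 2.11-fold, and Tgfbi by 0.72 ± 0.11 (limma adjusted p = 0.00565). Of the 16 probe sets 15 passed, against 22.3% of all 22518. The one that did not was 1415871_at, the dimmest of Tgfbi and the only Tgfbi probe set with no x or s in its suffix. It had 0.27 ± 0.11 (limma adjusted p = 0.132).

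The differences had the same sign in both pools for all 16 probe sets. How many of all probe sets did so was not counted, so this is not shown to be particular to these genes. Klf4 was higher in LSK by 0.86 in the Smo-deficient pool and 1.29 in the WT pool, and Irf8 differed by -0.88 and -1.28. With 2 pools the fit keeps 1 residual degree of freedom, which rests on the disagreement of the LSK to MP contrast between the genotypes. The p-values therefore say nothing about variation among mice of the same genotype. The SE is moderated by limma, which draws the variance of each probe set toward a trend over all probe sets. It thus does not measure how well the 2 pools agree for a gene. Tgfbi 1456250_x_at, with a difference of differences of 0.002, had an SE of 0.109, and Irf8 1416714_at, with 0.40, had 0.111. With no replicate block, 1 of the 8 genes (Klf4) rose in LSK with limma, where 4.7% of genes past the filter did, and 0 fell, where 0.706% did, and the other 7 had adjusted p from 0.0688 to 0.452.

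**Figure D3:**
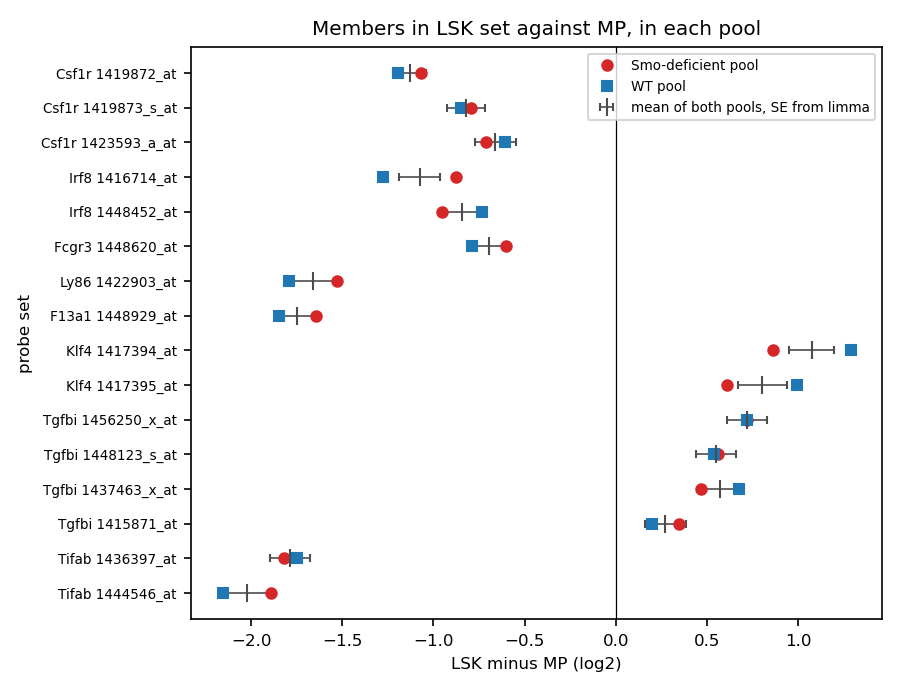
LSK minus MP (log2, x axis) for each of the 16 probe sets (y axis) in the Smo-deficient pool (red circles) and the WT pool (blue squares), with the mean of both and its SE from limma (bars). Klf4 and Tgfbi lie right of 0 in both pools, and the 6 other genes lie left of 0 in both.

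The genes with a profile most like a member's were found by the Euclidean distance between the 4 log2 values after each gene's mean was taken off, over 11904 genes and 4 arrays. The gene most like Csf1r was Irf8, at a distance of 0.1741, nearly tied with Nrp1 at 0.1742. The gene most like Irf8 was Csf1r. Each gene stood on its brightest probe set alone, and the distance of the other Irf8 probe set was not taken. Next to Csf1r came Nrp1, a semaphorin and VEGF co-receptor (0.17), Chdh, a choline dehydrogenase (0.23), Anxa3, an annexin (0.26), and Gria3, a glutamate receptor subunit (0.31). Next to Irf8 came Igsf6, an immunoglobulin superfamily protein (0.23), Nrp1 (0.24), Chdh (0.27) and Sgms2, a sphingomyelin synthase (0.27).

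Fcgr3, Ly86, F13a1 and Tifab ranked 12, 22, 34 and 39 by likeness to Csf1r, while Tgfbi ranked 9773 and Klf4 ranked 11582. The genes were chosen by log2 intensities of these same arrays, so their likeness to each other is a description and no independent support. On these values the 8 genes had 3 kinds of profile. Csf1r, Irf8, Fcgr3, Ly86, F13a1 and Tifab were higher in the Smo-deficient pool and lower in LSK than in MP. Tgfbi was higher in the Smo-deficient pool and higher in LSK than in MP. Klf4 was higher in LSK than in MP, with genotype differences near 0. The genes most like Klf4 were Snx33 (0.09), Nsmf (0.11), Coro2a (0.14), the cell cycle inhibitor Cdkn1a (0.14) and Plek (0.14), a substrate of protein kinase C.

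Of the 8 genes 4 lie on chromosome 13, as 2 pairs of close neighbours (RefSeq, GRCm38.p6). F13a1 and Ly86 are 295.1 kb apart, with 4 genes between them, none coding for a protein and none measured. Tifab and Tgfbi are 430.6 kb apart, with 16 genes between them. Of these, 7 were measured and 4 passed the filter. In LSK the genotype differences of the 7 ran from -0.32 (4930550C17Rik, below the filter) to 0.10 (Il9). In MP they ran from -0.18 (Slc25a48) to 0.26 (Il9). The 4 past the filter had log2 intensities from 7.17 (Lect2) to 7.70 (Slc25a48). That is near the filter level of 7.23, where a difference may not show. Within 1 Mb around F13a1 and Ly86 the 8 other genes past the filter had differences from -0.33 to 0.19 in LSK and -0.63 to 0.03 in MP. Around Tifab and Tgfbi the 28 other genes past the filter ran from -0.27 to 0.33 in LSK and -0.25 to 0.48 in MP. None of these neighbours reached the LSK difference of either member of its pair.

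Other genes of monocytes and their progenitors were also higher in the Smo-deficient pool for the most part. Of 20 such genes past the filter, 18 were higher in both populations by any size, where 26.6% of all genes were, and 7 were at least 1.5-fold higher in both. The list median was 0.67 in LSK and 0.55 in MP. This list and those below were chosen with earlier results of these data known, so their counts are a description and no independent support. Mpeg1, a pore-forming protein of macrophages, had 1.16 in LSK and 0.95 in MP, the adaptor Tyrobp had 1.17 and 0.93, and Ms4a6c had 0.87 and 0.91. Ccr2, the chemokine receptor through which monocytes leave the marrow, had the lowest values, -0.43 and -0.15, and Ly6e had -0.05 and 0.24. In LSK against MP 3 of the 20 rose and 8 fell with limma. Over all genes past the filter 1.11% were at least 1.5-fold higher in both populations, and 16.4% rose and 7.54% fell in LSK against MP.

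Transcription factors of monocyte and dendritic cell development had lower list medians than the monocyte progenitor genes. Of 17 past the filter 10 were higher in both populations, against 26.6% of all genes, and 2 were at least 1.5-fold higher in both, against 1.11%, with medians of 0.37 in LSK and 0.34 in MP. Bcl6, a repressor, differed by 1.08 and 1.01, Id2, an inhibitor of E proteins, by 1.43 and 0.49, and Cebpd by 1.17 and 0.68. Klf2, a relative of Klf4, had -0.55 in LSK and -0.22 in MP, and Egr2 had -0.61 and 0.12. In LSK against MP 9 of the 17 rose and 2 fell with limma, against 16.4% and 7.54% of all genes.

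Among colony-stimulating factors and their receptors, the ligands of Csf1r had genotype differences near or below 0. The values of Csf1 were -0.18 in LSK and -0.22 in MP, and those of Il34, below the filter, were -0.07 and 0.14. The GM-CSF receptor subunit Csf2ra was higher by 0.57 and 0.84, the shared beta subunit Csf2rb by 0.36 and 0.68, Csf2rb2 by 0.40 and 0.51, and the G-CSF receptor Csf3r by 0.32 and 0.62. Il3ra differed by 0.12 and 0.05. Flt3, the receptor related to Csf1r and Kit, was higher by 1.21 and 0.95, and the adaptor Dok2 had -0.38 and -0.05. Over all 19 genes of this list past the filter the median was 0.18 in LSK and 0.27 in MP, 2 were at least 1.5-fold higher in both, against 1.11% of all genes, and 6 rose and 2 fell in LSK against MP with limma, against 16.4% and 7.54%.

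Binding partners and close relatives of the members were taken as another list. The median of 17 genes past the filter was 0.28 in LSK and 0.11 in MP, 1 was at least 1.5-fold higher in both, against 1.11% of all genes, and 9 rose and 1 fell in LSK against MP with limma, against 16.4% and 7.54%. Fcer1g, the signal chain of Fcgr3, was the one 1.5-fold higher in both, with 0.72 and 0.76. The other Fc receptors Fcgr1, Fcgr2b and Fcgr4 differed by -0.12, 0.03 and 0.08 in LSK and by -0.06, 0.26 and 0.03 in MP. Whether their transcripts reach the Fcgr3 probes was not tested. Cd180, the partner of Ly86, differed by 0.36 and 0.19, its relative Tlr4 by 0.45 and 0.19, and Ly96, the relative of Ly86 that binds Tlr4, by 0.40 and 0.11.

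Tifa had differences of 0.65 in LSK and 0.16 in MP, and Traf6, the ligase that Tifa activates, had 0.17 and -0.20. F13b, the carrier subunit of factor XIII, was below the filter at -0.26 and 0.09, and Tgm2, a transglutaminase related to F13a1, differed by -0.24 and -1.17. The integrin chains Itgav and Itgb3 differed by 0.38 and -0.32 in LSK and by 0.41 and 0.02 in MP. Of the relatives of Irf8, Irf4 differed by 0.84 and 0.55, Irf2 by 0.63 and 0.43 and Irf1 by 0.18 and 0.04, and Klf5 differed by 0.28 and -0.16.

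**Figure D4:**
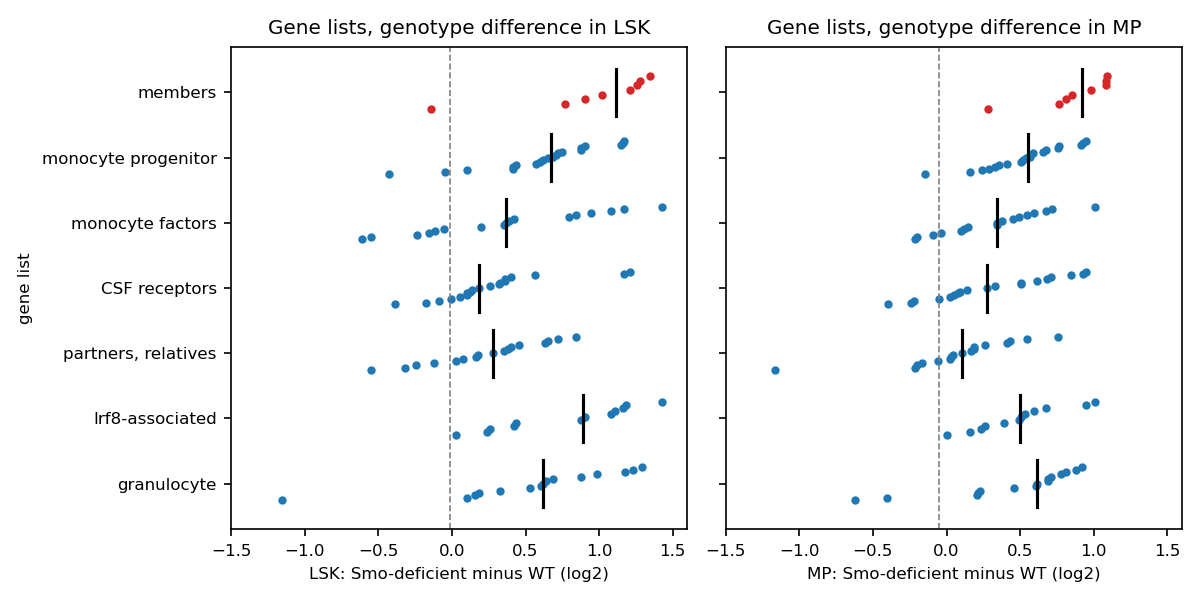
Genotype difference (log2, x axis) in LSK (left) and MP (right) of the 8 members (red) and of the genes past the filter in 6 lists (blue), 1 point per gene, with list medians as black bars and the median of all genes as a dashed line. The member medians are 1.12 and 0.92, the monocyte progenitor medians 0.67 and 0.55, and the granulocyte medians 0.62 and 0.62. Members and lists were chosen with earlier results of these data known.

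Genes of the neutrophil branch were higher alongside the monocyte genes. Of 15 granulocyte progenitor genes past the filter, 13 were higher in both populations, against 26.6% of all genes, and 7 at least 1.5-fold in both, against 1.11%, with medians of 0.62 in LSK and 0.62 in MP. Ets1 (1.29 and 0.92), the glutathione transferase Mgst1 (1.23 and 0.81) and Gfi1, a repressor needed for neutrophil formation (1.18 and 0.71), had the highest values, and Ces2g (-1.15 and -0.62) and Per3 (0.15 and -0.40) the lowest. In LSK against MP 3 of these genes rose and 7 fell with limma, against 16.4% and 7.54% of all genes. Ets1 is also expressed by lymphoid cells, so it is not a gene of the neutrophil branch alone.

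Markers of mature cell types moved with the members in part, and their part in these differences was not tested. The summed intensity of 10 measured neutrophil markers was 133677 in Smo-deficient LSK, against 82724 in WT LSK, and 116298 in Smo-deficient MP, against 101290 in WT MP. All 10 were higher in both populations, where 26.6% of all genes were. In LSK Itgb2l and Mmp8 differed by 1.32 and 1.25. The sum of 12 macrophage markers was 4672 in Smo-deficient LSK, against 3260 in WT LSK, but 4962 in Smo-deficient MP, against 6704 in WT MP. Slc40a1, the iron exporter and the brightest of these genes, made up 2200 of the sum in Smo-deficient MP, against 3849 in WT MP. Without it the sums were 3434 in Smo-deficient LSK, against 2252 in WT LSK, and 2762 in Smo-deficient MP, against 2854 in WT MP. Of the 12 genes 9 were higher in Smo-deficient LSK and 4 in Smo-deficient MP than in WT. Of the 8 past the filter 3 were higher in both populations, against 26.6% of all genes. Vcam1 and C1qb differed by 0.85 and 0.78 in LSK and by -0.20 and 0.23 in MP, and 4 of 12 markers in Smo-deficient LSK and 5 in WT LSK were below the filter level.

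Dendritic cell markers summed to 7087 in Smo-deficient LSK, against 3906 in WT LSK, and to 3474 in Smo-deficient MP, against 2633 in WT MP, with Flt3 (1.21 in LSK) and Klrd1 (0.78, below the filter) differing most. Flt3, which multipotent progenitors also express, made up most of these sums in LSK. Without it they were 1643 in Smo-deficient LSK, against 1550 in WT LSK, and 1577 in Smo-deficient MP, against 1651 in WT MP. Bst2 was lower, with -0.31 and -0.33. Of the 9 genes 5 were higher in Smo-deficient LSK and 3 in Smo-deficient MP than in WT. Of these genes 4 in Smo-deficient LSK and 5 on each other array were below the filter level. Of the 4 dendritic cell markers past the filter on their mean, 2 were higher in both populations, against 26.6% of all genes. B cell markers summed to 3465 in Smo-deficient LSK, against 2544 in WT LSK, and to 2922 in Smo-deficient MP, against 2475 in WT MP. Ms4a1 differed by 0.86 in LSK, and Ebf1 by 1.51, at levels below the filter on all 4 arrays. The ratios of the sums, Smo-deficient over WT, were 1.07 in LSK and 1.27 in MP for T and NK cells (Gzma 0.24, Cd3d 0.16 in LSK) and 1.16 and 1.26 for mast cells and basophils (Hdc 0.94, Fcer1a -0.80). They were 1.39 and 0.964 for mature erythroid cells (Slc4a1 0.80, Alas2 0.53) and 0.675 and 1.01 for stroma and endothelium (Col1a2 -1.76, Col1a1 -0.43). Without the brightest gene of each list they were 1.07 and 1.03 for T and NK cells, 1.33 and 1.34 for mast cells and basophils, 1.59 and 1.09 for mature erythroid cells and 0.938 and 1.02 for stroma and endothelium. For B cells the ratios were 1.36 and 1.18, and 1.32 and 1.08 without the brightest gene, Cd79b. For neutrophils they were 1.62 and 1.15, and 1.69 and 1.16 without S100a8. Cd3d, Fcer1a and Col1a1 were below the filter. In Smo-deficient LSK 8 of 9 B cell, 6 of 8 T and NK and 3 of 7 mast cell and basophil markers were higher. So were 5 of 5 mature erythroid and 2 of 10 stroma and endothelium markers. In Smo-deficient MP the counts, in the same order, were 7, 5, 5, 3 and 3. Of those past the filter, 5 of 8, 3 of 5, 3 of 5, 2 of 4 and 1 of 5 were higher in both. Over all genes 26.6% were.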

How the data were processed

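Total RNA of 20 ng per sample was amplified in 2 cycles and hybridised to Affymetrix arrays, per the labels' protocols. The authors deposited intensity values made with RMA, per the submitters' processing notes (version: not given in the sources used). The deposited intensity values were read as linear, and log2 was taken without a pseudocount. Quantile normalization within RMA may have taken out any shift common to most transcripts. Of 45037 probe sets besides 64 controls, 34945 had 1 gene in the platform annotation, 932 several and 9160 none. A gene was represented by its brightest single-gene probe set, and probe sets above the 50th percentile of the mean were kept, 22518 in all. With 1 array per group no genotype p-value was computed. LSK was tested against MP with limma 3.58.1 in R 4.3.3 (lmFit, eBayes with trend, two-sided, adjusted p under 0.05 over all kept probe sets), with the pool of mice, from which both populations of a genotype were sorted, as a block. The test was checked on simulated data with noise independent between arrays, so the check does not cover variation between pools or mice. The spread used 20 bins of mean level. Of 184 listed symbols in 6 pathway and 8 marker lists, 165 were measured. Named were all members and partners, the CSF receptors and ligands, of each pathway list the 3 genes with the highest and the 2 with the lowest mean genotype difference, 2 genes per marker list, the 5 genes most like Csf1r, Irf8 and Klf4, and neighbours within 2 Mb. Kit was added to the sex and Smo checks after the files were read, and neighbours with the extreme values were named after their values were seen, as were Slc40a1 and Bst2. The marker sums without the brightest gene of each list were added after seeing the data. Members and lists were chosen with earlier results of these data known. Alternatives were quantile and cyclic loess normalization, a pseudocount of 16, other filters, the mean of all probe sets, 1.5-fold, no block and no trend. The number of arrays limits the precision.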

Additional observations from a re-analysis of the deposited data

Results flagged for a closer look

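Klf4 had genotype differences of opposite sign, -0.14 in LSK and 0.28 in MP, a difference of differences of -0.43 on the log2 scale. It was singled out because the only array pair of each population moved the opposite way. The difference was not tested, both values lie within 2 spreads of 0, and the other Klf4 probe set had the same signs (-0.24 and 0.14).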

How the results depend on the processing

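No member changed the sign of its genotype difference or of LSK minus MP under any alternative run. The member median in LSK ran from 1.01 (mean of all probe sets) to 1.15 (cyclic loess), and in MP it was 0.86 with the mean of all probe sets, 0.998 after quantile normalization and 1.004 after cyclic loess. With the mean of all probe sets Csf1r had 0.84 in LSK and 0.81 in MP, and 2 members were 2-fold higher in MP, against 3 in the main setting and 4 after quantile normalization and after cyclic loess. At 1.5-fold 7 members were counted in MP, and over all probe sets 689 higher and 199 lower in LSK, and 530 and 593 in MP. At 2-fold 63 were higher and 81 lower in MP, a split that turned to 86 and 63 after quantile normalization and to 102 and 56 after cyclic loess. Without a filter 221 were 2-fold higher in LSK, against 134. LSK minus MP passed for 3395 probe sets higher and 1618 lower, against 2986 and 2570 after quantile normalization. With no replicate block 918 and 140 passed, and of the members 1 higher and 0 lower, against 2 and 6 with the block. That fit leaves the genotype difference in the residual. Leaving out a replicate was not possible with 1 array per group, and neither pool alone gives a test. Values below the filter level, such as Tifab 1444546_at in WT LSK, depend on the background.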

Other observations

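Genes that depend on or oppose Irf8 in mouse myeloid cells were another set of 12 genes past the filter. Klf4 also belongs to this set but was left out as a member, and it differed by -0.14 in LSK and 0.28 in MP. All 12 others were higher in the Smo-deficient pool in both populations, where 26.6% of all genes were. The set holds genes of both kinds, so a shared direction has no single reading. The median was 0.89 in LSK and 0.50 in MP, and 3 genes were at least 1.5-fold higher in both, against 1.11% of all genes. Mpeg1 differed by 1.16 and 0.95, Bcl6 by 1.08 and 1.01, and Id2 by 1.43 and 0.49, while the IgG receptor Fcgr2b (0.03 and 0.26) and the lysosomal amidase Naaa (0.26 and 0.23) had the lowest values. In LSK against MP 0 of the 12 rose and 2 fell with limma, against 16.4% and 7.54% of all genes. Of the 3 measured genes below the filter, Ciita, the master regulator of MHC class II genes, differed by -0.03 and 0.14, the dendritic cell factor Batf3 by 0.21 and 0.03 and the chemokine receptor Xcr1 by -0.07 and -0.04. Of the 12 genes 8 also stand in other lists above (Bcl6, Cd74, Cebpa, Ctss, Cybb, Fcgr2b, Id2 and Mpeg1), so the lists are not independent.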
